A study of Mus musculus with 8 samples.

Results

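Wnt proteins are secreted, lipid-modified signals that bind Frizzled receptors together with the co-receptors Lrp5 and Lrp6. Binding stops a cytoplasmic complex built on Axin and Apc from marking beta-catenin for destruction, so that beta-catenin reaches the nucleus and works with TCF and LEF factors. Other Wnt signals act through Frizzleds without beta-catenin. In adipose tissue, beta-catenin-dependent signalling is known for holding precursor cells back from becoming fat cells. The Wnt genes were taken here as every gene whose symbol names a Wnt ligand, Frizzled, secreted Frizzled-related protein, Dickkopf, R-spondin, Axin, TCF or LEF factor or Wisp protein, or is Lrp5, Lrp6, Ctnnb1, Apc, Nkd1, Nkd2, Lgr4, Lgr5, Lgr6, Wif1, Znrf3, Rnf43 or Porcn. That gave 63 of the 23372 genes of the count table, and 43 of them had enough counts to be tested.

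The study sequenced total RNA of brown adipose tissue, the heat-producing fat, from mice of C57BL/6 N background at 10 weeks of age. Knockout (KO) mice carried floxed Lsd1 alleles and a Cre recombinase under the Ucp1 promoter, and gave 4 libraries (replicates 512, 513, 515 and 516). Control mice carried the floxed alleles and, as far as the labels state, nothing else, and also gave 4 libraries (replicates 511, 514, 517 and 518). Lsd1 is a histone demethylase encoded by Kdm1a, and the question is how RNA levels of the tissue change once it is deleted in Ucp1-expressing cells; fibroblasts, vessels, nerve and immune cells of the same tissue should keep the gene. The labels name no Cre for the controls, so effects of Cre itself and of the loss of Lsd1 cannot be told apart.

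Each library held 23683798 to 28570446 counts with 1 row kept per gene. Levels are given as CPM, the counts scaled to a common library total with TMM factors, and levels compared between genes as CPM per kilobase of transcript. Fold changes are KO over control, with a standard error (SE) derived from the test statistic, and adjusted p-values come from edgeR's quasi-likelihood test over all 14178 genes tested, with a threshold of 0.05. The labels do not say how the mice were housed or related, so p-values measure the spread between these libraries. Kdm1a was at 13.1 ± 0.711 CPM in KO and 35.3 ± 1.52 CPM in control tissue (SD, n = 4 each). Brown adipocyte markers were abundant in every library. Their summed level was 5230.2 to 5934 CPM in KO and 8330.4 to 11699 CPM in control libraries. Of the 12 markers 6 fell, Ucp1 among them, where 18.9% of all tested genes fell.

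Of the 43 tested Wnt genes, 10 rose and 2 fell in KO tissue at an edgeR adjusted p under 0.05, while 31 did not pass. Together the called genes made up 27.9% of those tested, below the 34.4% of all tested genes. By direction, 23.3% of the tested Wnt genes rose, against 15.4% of all genes, and 4.65% fell, against 18.9% of all genes. Their median log2 fold change was 0.22, against -0.01 over all genes. KO and control values stood fully apart for 14 of the 43, or 32.6%, against 35.5% of all genes. To be tested a gene had to reach 0.405 CPM, computed on plain library totals before TMM scaling, in at least 4 libraries. Of the 43, 5 reached it in fewer than 4 control libraries, as did 1000 of all 14178 tested genes. Rspo3, counted among the 10 rises, reached it in 0 control libraries, so it was tested through the KO libraries alone. Rnf43, not called, reached it in 1 control library. Scaling by upper quartile factors or by library sizes alone shifted the median log2 fold change over all genes upward by 0.10 and 0.20, and rises then made up 64.2% and 81.4% of all calls, against 44.9% with TMM factors. With library sizes alone 15 Wnt genes rose, where 28.8% of all genes did, and 0 fell by edgeR (1 at an unadjusted p under 0.05), where 6.56% of all genes did. DESeq2 with its own size factors gave 3 Wnt genes lower, where 20.0% of all genes were.

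**Figure D1:**
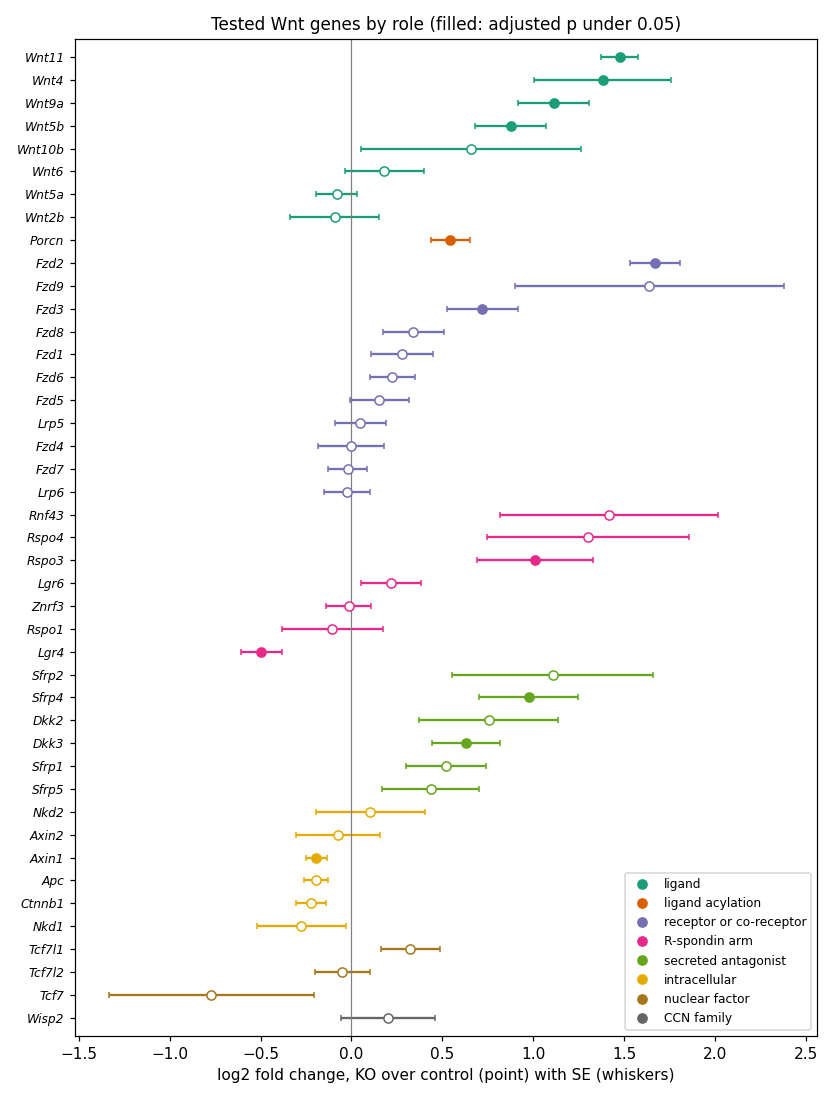
Log2 fold change, KO over control, of the 43 tested Wnt genes on the horizontal axis, with SE as whiskers and genes ordered by role down the page. Filled points are the 12 genes past an edgeR adjusted p of 0.05, of which Lgr4 and Axin1 lie left of 0.

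Of the 19 Wnt ligands found, 8 were tested, and 4 of those rose, against 15.4% of all genes, namely Wnt11, Wnt4, Wnt9a and Wnt5b. The other 4 did not pass. Once the skeletal muscle score, described further on, entered the fit, 2 of the 8 were higher, where 9.94% of all genes were. Wnt11, a ligand known mainly for signalling without beta-catenin, was at 22.3, 25.0, 24.5 and 22.1 CPM in the KO libraries, against 9.04, 9.02, 7.13 and 8.59 CPM in the control libraries. Every KO library held well over double the level of any control library. The rise was 2.78-fold (log2 fold change 1.48, SE 0.103, edgeR adjusted p = 6.8e-05). Wnt11 lies on chromosome 7 at 98838845 to 98854747 on the plus strand of mm10, and 8.80% of its exon bases lie opposite a processed pseudogene whose reads could not be separated without strand.

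Wnt9a, a ligand known from joint formation, was at 6.57, 5.75, 3.67 and 5.57 CPM in KO libraries and at 2.45, 2.15, 2.64 and 2.71 CPM in control libraries. The groups did not overlap, with KO library 515 the lowest of its group, and the rise was 2.16-fold (log2 fold change 1.11, SE 0.195, edgeR adjusted p = 0.00307; chromosome 11, 59306930 to 59333552). Wnt5b, a close relative of Wnt5a that promotes fat cell formation in mouse cell lines, was low in both groups. Its levels were 1.20, 1.28, 1.42 and 1.46 CPM in KO libraries and 0.857, 0.718, 0.572 and 0.754 CPM in control libraries, without overlap. It rose 1.84-fold (log2 fold change 0.88, SE 0.196, edgeR adjusted p = 0.00906; chromosome 6, 119432531 to 119544347).

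Wnt4, a ligand of kidney and reproductive tract development, spread more widely. The KO libraries held 6.81, 5.19, 2.92 and 1.94 CPM, and the control libraries 1.79, 1.20, 1.50 and 1.96 CPM. KO library 516 thus lay inside the control range while 512 and 513 were highest. The rise was 2.61-fold (log2 fold change 1.38, SE 0.378, edgeR adjusted p = 0.0213; chromosome 4, 137277635 to 137299501). It did not pass without KO library 512 (log2 fold change 1.05, edgeR adjusted p = 0.0510) or 513 (1.27, edgeR adjusted p = 0.0592). The levels of Wnt4 moved with skeletal muscle transcripts, described further on.

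The 250 bases before the transcription start of these 4 risen ligands are shown because all 4 passed the test in the same direction and TCF and LEF factors bind a short DNA motif. They are RefSeq promoter windows on GRCm38.p6, read 5′ to 3′ on the strand of the gene, at chr4:137277385-137277634 (plus) for Wnt4, chr6:119544348-119544597 (minus) for Wnt5b, chr11:59306680-59306929 (plus) for Wnt9a and chr7:98838595-98838844 (plus) for Wnt11. Capitals mark CTTTG, the core of the motif, or its reverse complement.
Wnt4: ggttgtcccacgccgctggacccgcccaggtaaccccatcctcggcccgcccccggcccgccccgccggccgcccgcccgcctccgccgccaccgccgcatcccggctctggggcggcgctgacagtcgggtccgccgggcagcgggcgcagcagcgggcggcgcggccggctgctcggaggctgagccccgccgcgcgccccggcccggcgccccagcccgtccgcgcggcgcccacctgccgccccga
Wnt5b: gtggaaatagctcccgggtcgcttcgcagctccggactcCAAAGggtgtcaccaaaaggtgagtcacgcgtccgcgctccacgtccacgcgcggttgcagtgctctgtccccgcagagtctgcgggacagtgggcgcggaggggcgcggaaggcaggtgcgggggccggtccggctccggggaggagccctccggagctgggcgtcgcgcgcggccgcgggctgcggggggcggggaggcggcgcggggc
Wnt9a: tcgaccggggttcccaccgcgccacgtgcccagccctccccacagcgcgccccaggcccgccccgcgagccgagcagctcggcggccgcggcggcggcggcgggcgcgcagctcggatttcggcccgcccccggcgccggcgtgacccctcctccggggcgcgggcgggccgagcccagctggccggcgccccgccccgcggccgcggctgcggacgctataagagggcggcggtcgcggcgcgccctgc
Wnt11: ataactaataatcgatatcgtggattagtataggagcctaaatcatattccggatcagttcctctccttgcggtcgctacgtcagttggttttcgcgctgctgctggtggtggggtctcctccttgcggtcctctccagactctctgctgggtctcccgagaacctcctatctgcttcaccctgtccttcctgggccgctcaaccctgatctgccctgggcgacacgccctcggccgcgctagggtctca
The longer forms CTTTGAA and CTTTGAT, searched on both strands, occurred in 7.48% of all 32851 windows of this length and in none of these 4. The core CTTTG, which every longer form contains, occurred in 48.6% of all windows, and of these 4 only in that of Wnt5b, 211 bases before the start. Of 40 Wnt genes matched to a window by symbol, 14 held the core, and only the Dkk1 window held a longer form. The windows of Wnt4 and Wnt9a had 85.2% and 84.4% G or C bases, against 75.2% for Wnt5b and 56.8% for Wnt11.

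The remaining 4 tested ligands did not pass. Wnt5a, which signals mostly without beta-catenin, was the most abundant of these, at 23.5 ± 1.44 CPM in KO and 24.9 ± 3.85 CPM in control tissue (SD, n = 4 each), with a log2 fold change of -0.08 (SE 0.115). Wnt10b, the ligand best known for blocking fat cell formation in mice, was near the limit of testing, at 0.241 to 0.710 CPM in KO and 0.0399 to 0.546 CPM in control libraries (log2 fold change 0.66, SE 0.605, edgeR adjusted p = 0.424). Wnt6 and Wnt2b had log2 fold changes of 0.18 (SE 0.216) and -0.09 (SE 0.244). Summed over all 19 ligands, the level was 56.3 to 65.5 CPM in KO libraries and 34.5 to 47.1 CPM in control libraries, and Wnt11 and Wnt5a made up most of it.

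Porcn, the acyltransferase that attaches the lipid every Wnt ligand needs to be secreted, rose as well. Its levels were 21.8, 19.5, 20.3 and 19.7 CPM in KO libraries and 14.4, 16.3, 13.2 and 11.9 CPM in control libraries. No control library reached the lowest KO library, and the rise was 1.46-fold (log2 fold change 0.54, SE 0.108, edgeR adjusted p = 0.00539; chromosome X, 8193850 to 8206525). Wls, the carrier that takes the lipid-modified ligand to the cell surface and which the symbol rule leaves out, was at 58.9 ± 3.61 CPM in KO and 37.6 ± 5.31 CPM in control tissue (SD, n = 4 each; log2 fold change 0.65, SE 0.104, edgeR adjusted p = 0.00207).

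**Figure D2:**
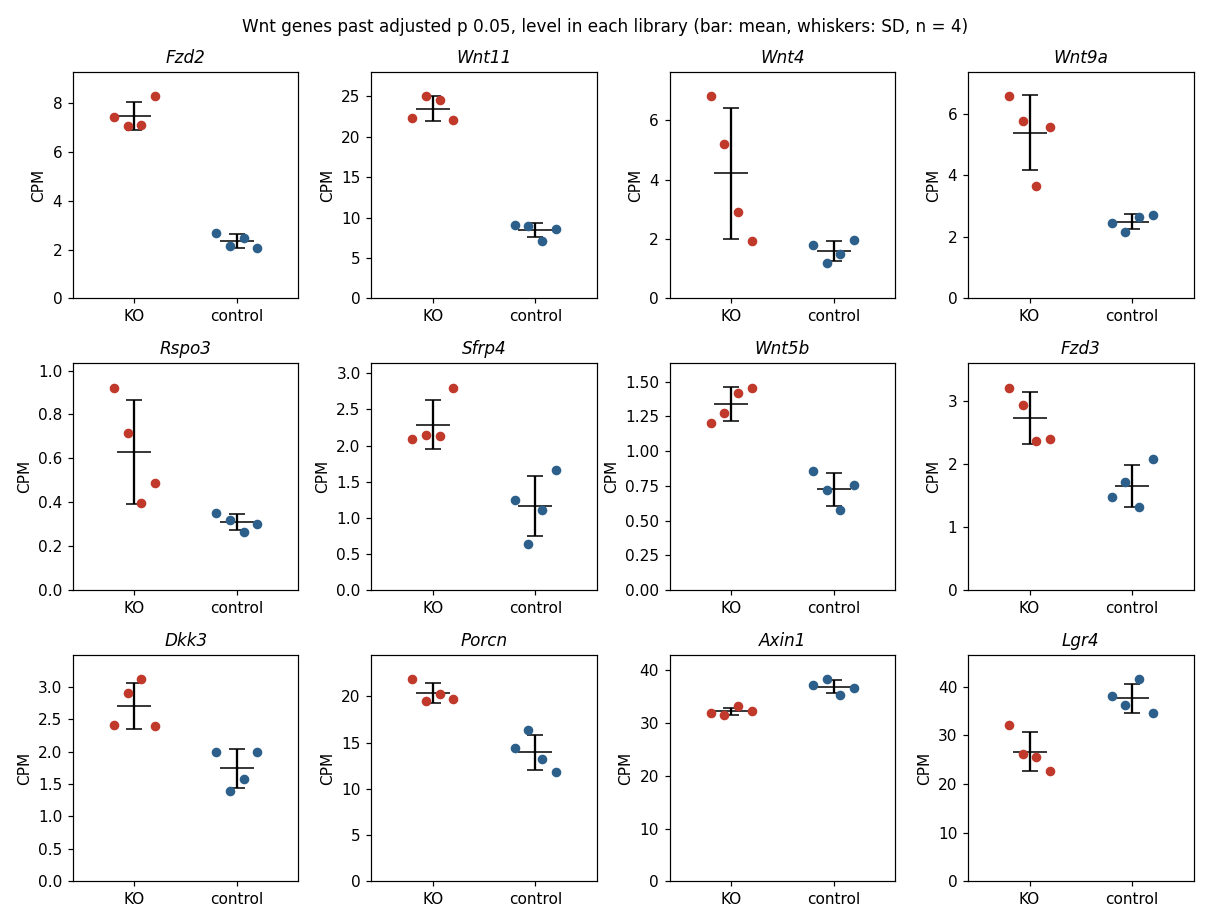
Level in CPM of the 12 called Wnt genes in each library, with KO left and control right in each panel, the bar at the mean and whiskers at the SD (n = 4 each). The groups overlap only for Wnt4; Lgr4 and Axin1 are the 2 panels with KO below control.

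Among the receptors, 2 of the 11 tested rose, both of them Frizzleds, a share of 18.2% against 15.4% of all genes. Fzd2, a receptor that can carry both kinds of Wnt signal, was at 7.46, 7.07, 7.10 and 8.30 CPM in KO libraries, against 2.69, 2.15, 2.47 and 2.07 CPM in control libraries. The 4 KO libraries lay close together and far above all controls. Its 3.19-fold rise was the largest of all tested Wnt genes (log2 fold change 1.67, SE 0.137, edgeR adjusted p = 0.000138; chromosome 11, 102604431 to 102608058). Fzd3, known from axon guidance and planar cell polarity, was at 3.21, 2.93, 2.37 and 2.39 CPM in KO libraries and at 1.48, 1.72, 1.32 and 2.07 CPM in control libraries. The groups came close without overlapping, and the rise was 1.65-fold (log2 fold change 0.72, SE 0.197, edgeR adjusted p = 0.0213; chromosome 14, 65192441 to 65262463). It did not pass without KO library 512 or 513 (edgeR adjusted p = 0.0552 and 0.0616).

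The abundant receptors did not differ detectably. Per length, Fzd4 was the most abundant Frizzled, at 35.6 CPM per kilobase in each group. Its levels were 142, 138, 137 and 106 CPM in KO libraries and 106, 129, 184 and 105 CPM in control libraries, a log2 fold change of -0.0017 (SE 0.181) with the groups fully mixed. The co-receptor Lrp5 was at 73.6, 73.9, 69.9 and 75.3 CPM in KO libraries and at 86.7, 80.4, 62.3 and 53.6 CPM in control libraries (log2 fold change 0.05, SE 0.140, edgeR adjusted p = 0.810). Its KO values all fell within the wider control range. The co-receptor Lrp6 was at 91.1, 89.9, 72.2 and 86.6 CPM in KO libraries and at 99.7, 80.1, 97.0 and 68.8 CPM in control libraries (log2 fold change -0.02, SE 0.128, edgeR adjusted p = 0.900). Fzd7, Fzd5, Fzd6, Fzd1 and Fzd8 had log2 fold changes of -0.02 to 0.34 and did not pass. With library sizes alone Fzd1, Fzd6 and Fzd8 passed (edgeR adjusted p = 0.0441, 0.0349 and 0.0278), and Fzd1 also passed without control library 511 (0.0481) and Fzd6 without control library 517 (0.0426). Of these Fzd8 showed no overlap, with 12.8 to 14.1 CPM in KO and 6.93 to 12.7 CPM in control libraries (edgeR adjusted p = 0.146).

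The R-spondin arm of the pathway tunes how many Frizzleds a cell shows: the ubiquitin ligases Znrf3 and Rnf43 remove them, and R-spondins bound to Lgr receptors take the ligases away. Here 1 of 7 tested genes rose and 1 fell, each 14.3%, against 15.4% higher and 18.9% lower over all genes. Lgr4, the R-spondin receptor that fell, was at 32.2, 26.2, 25.5 and 22.8 CPM in KO libraries, against 38.0, 36.1, 41.6 and 34.7 CPM in control libraries. All KO libraries were below all controls, by -0.50 on the log2 scale (SE 0.111, edgeR adjusted p = 0.00912; chromosome 2, 109917647 to 110014257). Scaled by library sizes alone, Lgr4 missed the threshold (log2 fold change -0.30, edgeR adjusted p = 0.0581). Lgr6, the most abundant R-spondin receptor per length, was at 75.3, 88.0, 69.7 and 61.8 CPM in KO libraries and at 82.6, 53.7, 50.8 and 66.7 CPM in control libraries (log2 fold change 0.22, SE 0.164, edgeR adjusted p = 0.336).

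Rspo3, an R-spondin, rose 2.01-fold at a level close to the limit of testing. It was at 0.922, 0.714, 0.394 and 0.486 CPM in KO libraries, from 65 counts in all, and at 0.351, 0.319, 0.264 and 0.301 CPM in control libraries, from 31 counts. The groups did not overlap (log2 fold change 1.01, SE 0.321, edgeR adjusted p = 0.0375; chromosome 10, 29453107 to 29535867), but no control library reached the level needed for testing. The call ended without any one of KO libraries 512 and 513 (edgeR adjusted p = 0.0917 and 0.0946) or control libraries 511, 514, 517 and 518 (0.0573, 0.0692, 0.0827 and 0.0692), and by DESeq2 it did not pass either (DESeq2 adjusted p = 0.0818). An antisense gene also covers 13.1% of its exon bases. Znrf3 was at 10.3 ± 1.07 CPM in KO and 10.4 ± 1.28 CPM in control tissue (SD, n = 4 each; log2 fold change -0.02, SE 0.122). Rspo1 had a log2 fold change of -0.11 (SE 0.277) and did not pass.

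Secreted antagonists gave 2 rises among 6 tested genes (33.3%, against 15.4% of all genes). With the skeletal muscle score, described further on, in the fit 0 rose, where 9.94% of all genes did. Sfrp4, a secreted Frizzled-related protein that binds Wnt ligands, was at 2.08, 2.14, 2.13 and 2.80 CPM in KO libraries and at 1.25, 0.638, 1.10 and 1.66 CPM in control libraries, without overlap. It rose 1.96-fold (log2 fold change 0.97, SE 0.273, edgeR adjusted p = 0.0231; chromosome 13, 19623175 to 19632823), and did not pass without KO library 516, its highest (edgeR adjusted p = 0.0669). Dkk3, the Dickkopf that is not a typical blocker of Lrp5 and Lrp6, was at 2.41, 2.89, 3.12 and 2.39 CPM in KO libraries and at 1.99, 1.40, 1.58 and 2.00 CPM in control libraries. The groups did not overlap, and the rise was 1.55-fold (log2 fold change 0.63, SE 0.185, edgeR adjusted p = 0.0281; chromosome 7, 112116019 to 112159057). The call ended without KO library 513 or 515 (edgeR adjusted p = 0.0772 and 0.0814) or control library 514 or 517 (0.0654 and 0.0614).

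Sfrp2, Dkk2, Sfrp1 and Sfrp5 had log2 fold changes of 1.11 (SE 0.552), 0.76 (SE 0.382), 0.52 (SE 0.221) and 0.44 (SE 0.265) and did not pass. With library sizes alone, or without control library 517, Sfrp1 passed (edgeR adjusted p = 0.0299 and 0.0213). Sfrp2, a fibroblast product in many tissues, varied most, at 2.24, 4.89, 8.08 and 14.0 CPM in KO libraries and 4.75, 1.76, 5.15 and 1.96 CPM in control libraries. An antisense gene covers 16.1% of its exon bases. Sfrp5, an antagonist made by fat cells in mice, was at 6.19 ± 1.64 CPM in KO and 4.56 ± 1.52 CPM in control tissue (SD, n = 4 each). Dkk1 and Dkk4, which block Lrp5 and Lrp6, had no count in any library, and 3 counts in a library, the limit that a count of 0 allows, would be 0.105 to 0.127 CPM.

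Of the 6 intracellular Wnt genes of the symbol rule 1 passed the test, with a fall (16.7%, against 18.9% of all genes). Axin1, the scaffold of the destruction complex, was at 31.9, 31.6, 33.1 and 32.3 CPM in KO libraries and at 37.2, 38.3, 35.3 and 36.6 CPM in control libraries. The groups did not overlap, and the difference was -0.19 in log2 units (SE 0.0587, edgeR adjusted p = 0.0313; chromosome 17, 26138686 to 26195811). This fall depended on the scaling: the log2 fold change was -0.09 with upper quartile factors (edgeR adjusted p = 0.268) and 0.0040 with library sizes alone. The call also ended without any one of KO libraries 512, 513, 515 and 516 (edgeR adjusted p = 0.0633, 0.0873, 0.0571 and 0.0712) or control libraries 511, 514 and 518 (0.0515, 0.0799 and 0.0548).

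Ctnnb1, which encodes beta-catenin, was the most abundant of the Wnt genes per length, at 124 CPM per kilobase in KO and 145 CPM per kilobase in control tissue. Its levels were 416, 462, 476 and 428 CPM in KO libraries and 486, 489.8, 522 and 581 CPM in control libraries. Every KO library was below every control, but the log2 fold change of -0.22 (SE 0.0824) did not pass (edgeR adjusted p = 0.0639; DESeq2 adjusted p = 0.0471), and it was -0.03 with library sizes alone. Of its exon bases 14.6% lie opposite Ulk4. Apc, the other scaffold, showed the same pattern, with 44.8 to 51.7 CPM in KO and 51.9 to 57.2 CPM in control libraries (log2 fold change -0.20, SE 0.0682, edgeR adjusted p = 0.0521), and its value was 0.0016 with library sizes alone.

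Axin2, the Axin paralog that the pathway itself induces, gave no call. It was at 25.9, 33.0, 36.2 and 29.7 CPM in KO libraries and at 48.2, 36.1, 22.4 and 24.5 CPM in control libraries, so control libraries 511 and 517 bracketed all KO libraries (log2 fold change -0.07, SE 0.231, edgeR adjusted p = 0.832). Nkd1 and Nkd2, feedback inhibitors that bind Dishevelled, had log2 fold changes of -0.28 (SE 0.245) and 0.10 (SE 0.300). Among the nuclear factors Tcf7l1, Tcf7l2 and Tcf7 had values of 0.32 (SE 0.161), -0.05 (SE 0.151) and -0.77 (SE 0.564), and none passed, by edgeR or DESeq2, with 0 of the 3 at an unadjusted p under 0.05. Wisp2, a secreted protein of mesenchymal cells, had a log2 fold change of 0.20 (SE 0.257).

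Counts were too low for a test in 20 Wnt genes. Of these 15 stayed under 10 counts in every library, and Dkk1, Dkk4, Wnt3a and Wnt7a had none. The highest were Fzd10, with up to 48 counts in a library, Lef1 with up to 28, Wnt2 with up to 14, and Wnt16 and Rspo2 with up to 10. Wisp1, Wisp3, Wif1, Lgr5, Wnt8b, Wnt9b, Wnt10a, Wnt1, Wnt7b, Wnt3 and Wnt8a had a highest count of 1 to 9. Tested without the filter on low counts, Fzd10 and Wnt16 were higher in KO tissue (edgeR adjusted p = 0.0180 and 0.0408), where 11.6% of all genes were. Fzd10 was at 1.92, 0.977, 0.710 and 0.374 CPM in KO libraries and at 0.390, 0.0798, 0.132 and 0.188 CPM in control libraries, and KO library 516 lay inside the control range.

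Wnt genes outside the symbol rule were read from 5 lists of textbook members. Secretion factors and further secreted or membrane antagonists gave 3 rises among 12 tested genes (25.0%, against 15.4% of all genes), with a median log2 fold change of 0.44, against -0.01 over all genes. With upper quartile factors 7 rose, with library sizes alone 8 and by DESeq2 5, where 20.6%, 28.8% and 18.0% of all genes did. The 3 were Wls, the antagonist Apcdd1 (22.6 ± 4.65 CPM in KO and 8.21 ± 2.61 CPM in control tissue, SD, n = 4 each; log2 fold change 1.46, edgeR adjusted p = 0.00178) and Kremen1, a Dickkopf receptor (0.45, edgeR adjusted p = 0.00294). Co-receptors and planar polarity genes gave 2 rises among 19, Vangl1 (0.41, edgeR adjusted p = 0.0246) and Celsr1 (0.76, edgeR adjusted p = 0.0330), both core polarity proteins, with a median of 0.10. That share was below the 15.4% of all genes, and with library sizes alone 6 rose, against 28.8% of all genes. Neither passed once the skeletal muscle score entered the fit, or without KO library 513, 515 or 516 or control library 514, and 1 of them without KO library 512 or control library 511 or 517.

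Intracellular transduction genes went both ways, with 4 of 26 higher and 4 lower, each 15.4%, against 15.4% higher and 18.9% lower over all genes. With library sizes alone 8 were higher and 3 lower. Their median was -0.08, which was above 0 with upper quartile factors or library sizes alone (0.02 and 0.12). Both GSK3 kinases, which mark beta-catenin for destruction, fell. Gsk3b, named after its values were seen, was at 87.0 ± 7.63 CPM in KO and 157 ± 41.4 CPM in control tissue (SD, n = 4 each; log2 fold change -0.85, SE 0.172, edgeR adjusted p = 0.00563), and Gsk3a at 123 ± 1.55 CPM in KO and 171 ± 9.10 CPM in control tissue (-0.48, SE 0.0600, edgeR adjusted p = 0.000701). Frat1, a GSK3-binding protein, also fell (-0.75, edgeR adjusted p = 0.00177), as did Usp34 (-0.34, edgeR adjusted p = 0.00337), a deubiquitinase that acts on Axin. Apc2, a neuronal Apc paralog, rose (log2 fold change 1.15, edgeR adjusted p = 0.00323). Of 21 tested nuclear cofactors of beta-catenin 1 passed, Tbl1x, which fell (-0.46, edgeR adjusted p = 0.0199), and it did not pass without KO library 513, 515 or 516 or control library 518. Over all genes 18.9% fell and 15.4% rose, and with library sizes alone 6 of these cofactors rose and Tbl1x did not pass.

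Among textbook target genes of beta-catenin 7 of 18 tested rose, 38.9%, against 15.4% of all genes, with a median of 0.41, and without KO library 512 it was 4. With the skeletal muscle score in the fit 5 were higher and 1 lower, where 9.94% and 12.7% of all genes were. Of the 26 target genes found 8 were not tested, and Sp5, Mmp7, T and Cdx2 had no count in any library. The 4 with the smallest p were Twist1, Ccnd1, Sox9 and Cd44. Ccnd1, cyclin D1, was at 49.3 ± 12.6 CPM in KO and 17.3 ± 5.28 CPM in control tissue (SD, n = 4 each; log2 fold change 1.51, edgeR adjusted p = 0.00238). Twist1, a transcription factor of mesenchymal cells, rose by 0.73 in log2 units (edgeR adjusted p = 0.00234), Sox9, a cartilage and progenitor factor, rose by 1.29 (edgeR adjusted p = 0.00371), and Cd44, a cell adhesion receptor, rose by 1.21 (edgeR adjusted p = 0.00422). Many of these genes answer to other signals too. The list leaves out target genes that the symbol rule holds, among them Axin2 and Nkd1, which did not pass. The 38.9% is therefore not the share over all target genes.

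Summed marker levels of skeletal muscle, smooth muscle and pericytes, Schwann cells and nerve, and fat cells in general did not overlap between the groups. Those of fibroblasts, macrophages and endothelial cells overlapped with TMM scaling, and no sum was tested. TMM factors were 1.05 to 1.10 in KO and 0.898 to 0.961 in control libraries. On plain library totals KO sums would thus stand higher against control sums, so whether groups overlap depends on the scaling. In whole tissue, fewer cells of a type and less RNA per cell cannot be told apart. Skeletal muscle markers summed to 7588 to 16417 CPM in KO and 278 to 6431 CPM in control libraries, with 2 of 16 higher (12.5%, against 15.4% of all genes). KO and control values stood fully apart for 13 of the 16 (81.2%, against 35.5% of all genes). The score of these markers, the mean log2 CPM of 16 genes, was 8.43 to 9.59 in KO and 3.66 to 8.20 in control libraries. Fibroblast and preadipocyte markers summed to 1976 to 2997 CPM in KO and 1112 to 2306 CPM in control libraries, with 2 of 14 higher (14.3%) and overlapping sums. Of the macrophage markers 4 of 10 were higher (40.0%, against 15.4% of all genes). Their sums, 209 to 319 CPM in KO and 117 to 215 CPM in control libraries, overlapped. Of the endothelial markers 2 of 10 were higher (20.0%), with overlapping sums of 1326 to 1503 CPM in KO and 1245 to 1436 CPM in control libraries. Smooth muscle and pericyte markers summed to 1111 to 1396 CPM in KO and 927 to 1068 CPM in control libraries. Of these 1 of 10 was higher and 1 lower, each 10.0%, against 15.4% higher and 18.9% lower over all genes. Schwann cell and nerve markers summed to 416 to 481 CPM in KO and 290.2 to 387 CPM in control libraries, with 1 of 10 higher (10.0%). Markers of fat cells in general, such as Fabp4 and Pparg, summed to 14571 to 16535 CPM in KO and 19908 to 24446 CPM in control libraries, and 5 of 8 fell (62.5%, against 18.9% of all genes). No marker of these lists was at 0 in every library. Apart from skeletal muscle, the part of these cell types in the Wnt results was not tested.

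With the muscle score as a covariate, 4 Wnt genes were higher, namely Wnt11, Fzd2, Wnt9a and Porcn, and 1 was lower, Lgr4. Over all genes 9.94% were then higher and 12.7% lower. The calls of Wnt5b, Fzd3, Rspo3 and Axin1 ended (edgeR adjusted p = 0.0575, 0.122, 0.209 and 0.216), with log2 fold changes of 0.88, 0.66, 0.87 and -0.16 under the covariate, against 0.88, 0.72, 1.01 and -0.19 without it. Those of Sfrp4, Wnt4 and Dkk3 ended too (edgeR adjusted p = 0.219, 0.224 and 0.237), with log2 fold changes of 0.53, 0.86 and 0.42 under the covariate, against 0.97, 1.38 and 0.63 without it. Since the score did not overlap between the groups, this fit also takes up part of the group difference. Wnt11 kept a log2 fold change of 1.52 and Fzd2 one of 1.63.

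Fzd9, Rspo4 and Rnf43 spread widely among the control libraries and did not pass. Fzd9, a Frizzled made in muscle and brain, was at 10.4, 4.62, 2.68 and 2.91 CPM in KO libraries and at 2.22, 0.160, 0.616 and 3.54 CPM in control libraries (log2 fold change 1.64, SE 0.740, edgeR adjusted p = 0.115). KO library 512, with the highest score, held most, and control library 514, with the lowest score, held least, and with the score as a covariate the log2 fold change was -0.30. Rspo4 was at 11.4, 18.7, 18.3 and 18.3 CPM in KO libraries and at 6.47, 1.44, 3.74 and 15.3 CPM in control libraries (log2 fold change 1.30, SE 0.555, edgeR adjusted p = 0.0977). Rnf43 was at 1.32, 0.601, 0.710 and 1.20 CPM in KO libraries and at 0.0779, 0.239, 0.176 and 0.904 CPM in control libraries (1.42, SE 0.598, edgeR adjusted p = 0.0953). For all 3, control library 518 lay inside the KO range, and without it Fzd9, Rspo4 and Rnf43 passed (edgeR adjusted p = 0.0490, 0.00823 and 0.00612). These genes were singled out after their values were seen.

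**Figure D3:**
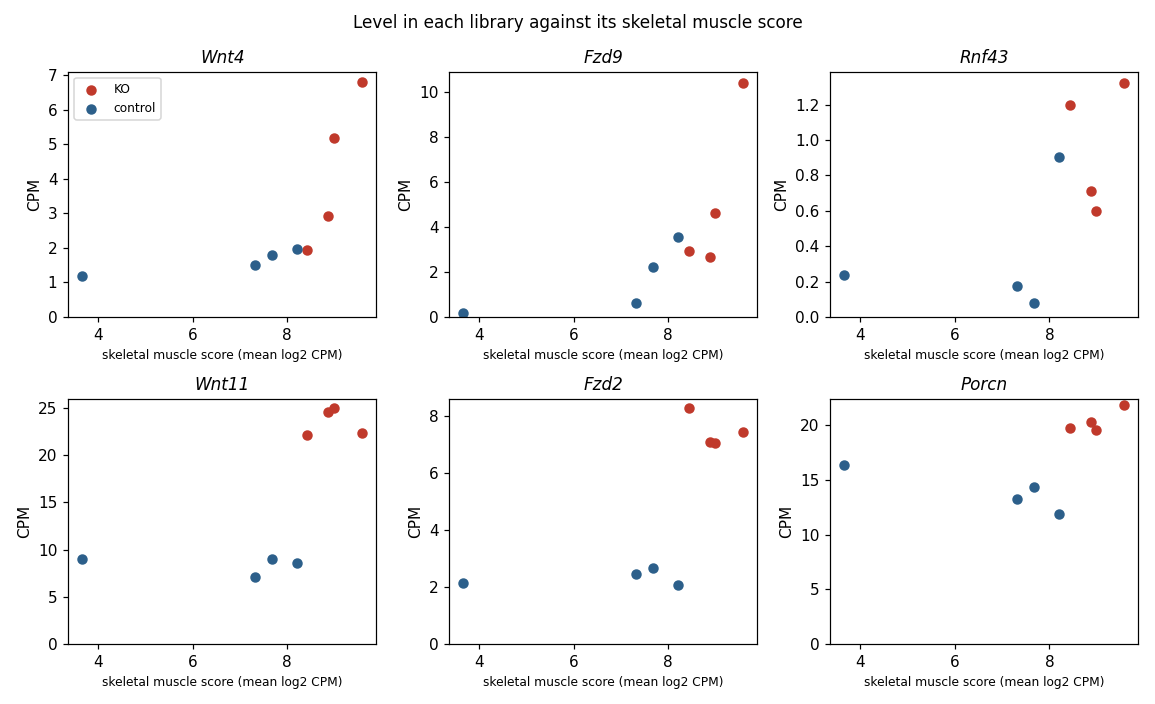
Level in CPM (vertical) against the skeletal muscle score, a mean log2 CPM (horizontal), for 6 Wnt genes, with a point per library, KO red and control blue. Control library 514 stands at a score of 3.66; Wnt11, Fzd2 and Porcn show 2 separate levels by group, while Wnt4 and Fzd9 are highest in the libraries with the highest scores.

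The authors' deposited table of their own edgeR comparison lists 11 Wnt genes as higher and 1 as lower at an FDR under 0.05. The share over all genes of that table was not counted here, so these counts have no background beside them. In the authors' deposited table, FDRs under 0.05 with the same direction stand beside 9 of the 12 genes called here, and not beside Axin1, Dkk3 and Rspo3. That table also lists Fzd10, Wnt16 and Rspo4 as higher (authors' edgeR FDR 0.00117, 0.0290 and 0.0321). Here Fzd10 and Wnt16 were too low in counts for a test, and Rspo4 did not pass with all libraries.

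**Figure D4:**
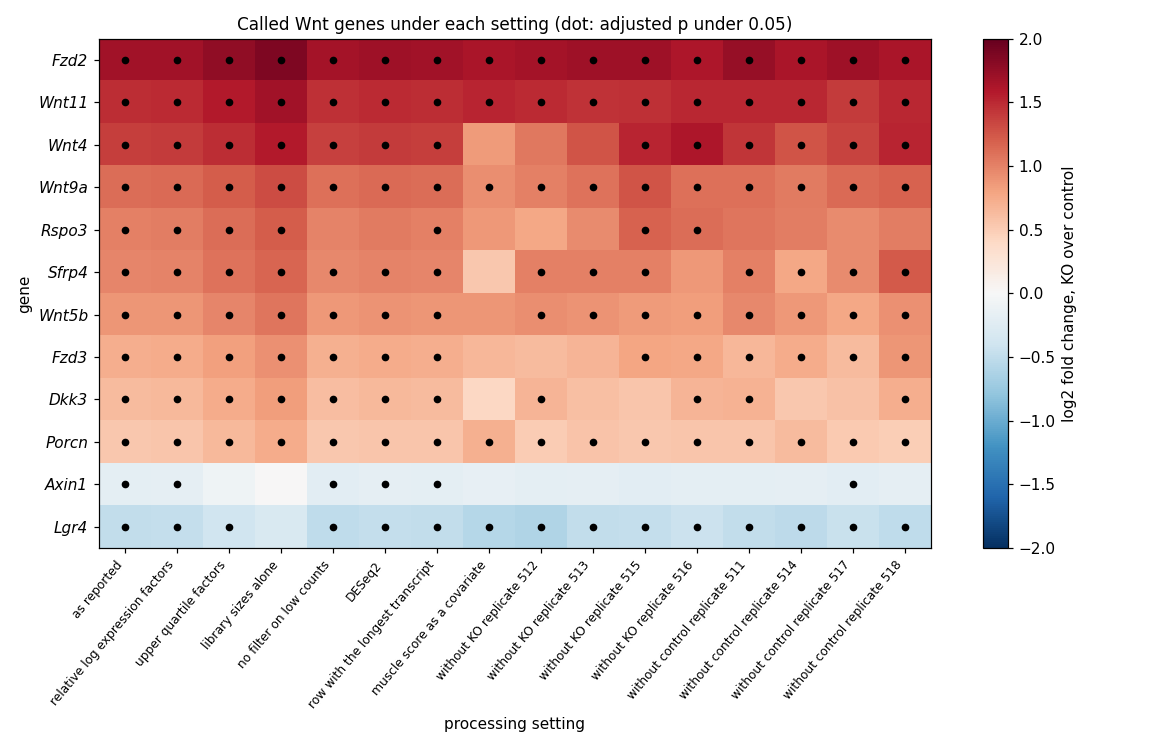
Log2 fold change, KO over control (colour), of the 12 called Wnt genes (rows) under each of the 15 alternative settings and as reported (columns), with a dot where the adjusted p is under 0.05. Fzd2, Wnt11, Wnt9a and Porcn have a dot in every column, and Axin1 in the fewest.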

How the data were processed

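Total RNA was taken up in Trizol and read by Illumina sequencing, per the labels' protocols. The aligner was TopHat version 2 and the build mm10, according to the submitters' processing notes. The estimated counts deposited by the authors came from HOMER's analyzeRepeats.pl, unadjusted, over exons of RefSeq transcripts on both strands, per the file headers, so antisense reads cannot be told apart. A second table deposited by the authors gives each library's counts brought to one shared total (a signal, not tested here), a log2 fold change and an FDR, which is an adjusted p-value, per the file headers.

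The counts are multiples of 0.5, 36.9% of them not whole, and were rounded. The 829 rows without a gene symbol (0.0608% to 0.0824% of a library's counts) were left out, and each symbol was represented by its row with the highest total, leaving 23372 genes. The 14178 genes that passed filterByExpr (minimum count 10) entered the quasi-likelihood test of edgeR 4.0.16 (R 4.3.3) for KO against control, with TMM factors, no covariates, two-sided, and Benjamini-Hochberg adjustment. The biological coefficient of variation in common was 0.181. The SE is the size of the log2 fold change divided by the square root of F.

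The members and lists were chosen with earlier results of these data known. Every Wnt gene of the symbol rule is accounted for, called ones with every library's value, uncalled ones in full for the 5 highest levels per length, and up to 4 called genes of each further list by smallest p. List entries matched by symbol 221 times, by RefSeq synonym once, and 3 were not matched. White adipose and lymphocyte markers were also read, where 15.4% of all genes rose and 18.9% fell. The first gave 2 rises (28.6%) and 1 fall (14.3%) among 7 tested genes. The second gave 0 calls among 9 by edgeR, with 1 at an unadjusted p under 0.05. On simulated counts of KO against control over 14075 genes, 50 genes each were changed 1.25-, 1.5-, 2- and 4-fold. Of these 0%, 30%, 74% and 96% were recovered. Far fewer genes were changed there than the 34.4% called in the data, so these shares do not measure recovery in the data. Alternatives used other scalings, no filter, DESeq2 1.42.0, the longest transcript, a muscle covariate and each library left out. Exon overlaps came from GENCODE M21 (mm10).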

Additional observations from a re-analysis of the deposited data

Results flagged for a closer look

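Of 86 groups of 4 libraries, from 43 tested Wnt genes in KO and control tissue, 5 held a library far from the others by Dixon's criterion, about as many as the 1 in 20 that chance gives. In KO tissue Fzd4 was low in library 516, at 106 CPM against 137 to 142 CPM in the other 3, and Rspo4 was low in library 512, at 11.4 CPM against 18.3 to 18.7 CPM. Sfrp4 was high in KO library 516, at 2.80 CPM against 2.08 to 2.14 CPM, and the call of Sfrp4 ended without that library (edgeR adjusted p = 0.0669). Tcf7 was high in KO library 512, at 2.73 CPM against 1.05 to 1.27 CPM. In control tissue Wnt6 was high in library 511, at 0.857 CPM against 0.603 to 0.638 CPM.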

How the results depend on the processing

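Of the 12 called Wnt genes, Fzd2, Wnt11, Wnt9a and Porcn passed under all 15 alternatives, and these with Wnt5b and Lgr4 under all 8 fits that left out a library. With upper quartile factors 1 Wnt gene was lower, and 1625 of all genes. With library sizes alone 15 Wnt genes were higher and 0 lower by edgeR (1 lower at an unadjusted p under 0.05; DESeq2 with its own factors gave 3 lower), and over all genes 4077 were higher and 930 lower; the log2 fold change of Axin1 was then 0.0040. With the muscle score as a covariate 4 Wnt genes were higher and 1 lower, and 1409 of all genes were higher. Without the filter on low counts 11 were higher, Fzd10 and Wnt16 among them and Rspo3 not. Leaving out a library gave 7 to 13 Wnt genes higher, Fzd10 included in each, and 1 to 2 lower. Over all genes it gave 1527 to 2260 higher and 1900.0 to 2655 lower. With all libraries Fzd10 reached the level needed for testing in 3 KO and 0 control libraries, so it was tested through the KO libraries alone. Among the 43 genes tested with all libraries, 6 to 12 were higher in these fits. Genes past the threshold in neither fit changed sign in 47 of 645 pairs of gene and setting. The cause of these differences was not tested. No paired analysis was possible because the replicate numbers differ between the groups. Depth limits the low genes: 3 counts were 0.105 to 0.127 CPM, which cover counting error only.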
